A study of Homo sapiens with 6 samples.

Results

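The expression of 10 genes that govern passage through G1 was followed in the RNA-seq of U2932 cells after ROCK2 knockdown: the cyclins CCND2, CCND3 and CCNE1, the kinases CDK2, CDK4 and CDK6, and the CDK inhibitors CDKN1A, CDKN1B, CDKN2C and CDKN2D. They were chosen by symbol, with earlier results of these data known and no measured value in the rule, and are 10 of the 20667 genes listed in each library. U2932 is a cell line established from a diffuse large B-cell lymphoma of the activated B-cell type (ABC-DLBCL). All cells carried a lentiviral pLKO.1 vector with a puromycin resistance cassette and tGFP, and expressed either an shRNA against ROCK2 (ROCK2 KD, 3 libraries) or a scrambled shRNA (Scr shRNA, 3 libraries). ROCK2 encodes a serine/threonine kinase. Replicates are numbered 1 to 3 in both groups, and the question addressed here is how transcripts of the G1 machinery stood in knockdown cells beside their same-numbered control. The knockdown rests on a single ROCK2 hairpin, so effects of that hairpin and of lower ROCK2 cannot be told apart. No label or method states that replicates came from separate infections, so p-values measure the spread between these samples, which may be technical.

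In G1, D-type cyclins bind CDK4 or CDK6 and phosphorylate the retinoblastoma protein, which releases E2F transcription factors from repression. E2F activity raises cyclin E, which with CDK2 completes the phosphorylation and allows entry into S phase. The INK4 inhibitors, here p18 (CDKN2C) and p19 (CDKN2D), bind CDK4 and CDK6, whereas the CIP/KIP inhibitors p21 (CDKN1A) and p27 (CDKN1B) bind complexes of cyclins with CDKs and above all restrain CDK2. In B cells, cyclins D2 and D3 and CDK4 and CDK6 carry much of the response to antigen receptor and germinal center signals, and p18 limits cycling as B cells become plasma cells.

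The genes lie on chromosomes 1, 6, 7, 12 and 19 (positions in GRCh37, the sequence of the hg19 build used by the authors). CDKN2C lies at chr1:51426417-51440306 on the plus strand. CDKN1A (chr6:36644237-36655114, plus) and CCND3 (chr6:41902672-42018095, minus) share chromosome 6. CDK6 spans chr7:92234235-92465887 on the minus strand. Chromosome 12 holds CCND2 (chr12:4378937-4414519, plus), CDKN1B (chr12:12838432-12875303, plus), CDK2 (chr12:56360565-56366573, plus) and CDK4 (chr12:58141510-58149796, minus). CDKN2D (chr19:10677136-10679735, minus) and CCNE1 (chr19:30302898-30315219, plus) lie on chromosome 19. Of the members, 7 share exon bases with a gene annotated on the other strand or on the same strand, and the library kit does not mark strand. The largest share was that of CDK4, where TSPAN31 on the opposite strand covers 1369 exon bases, 44.2% of those annotated for CDK4. Reads from the shared stretch cannot be told apart. TSPAN31 stood at 5.70 to 8.69 scaled FPKM over the 6 libraries, against 58.3 to 116 for CDK4.

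The promoters of 4 members are shown because their genes stood on opposite sides of the difference between replicate numbers described further on: CDK4 and CCNE1 were lower, and CDKN1A and CDKN1B higher relative to the median gene, in the replicate 1 libraries. For CDKN1B this held for the mean of the replicate 1 libraries alone, as its highest library was ROCK2 KD replicate 3. Each is the RefSeq stretch of 250 bases before and 50 bases from the start site, placed by an exact and single match to GRCh37, and written 5′ to 3′ on the strand of the gene. Capitals mark 5 kinds of motif searched on both strands: the CCAAT box, the E-box with the letters CACGTG, the GC box with the letters GGGCGG, the cell cycle homology element with the letters TTTGAA, and the E2F forms TTTCCCGC, TTTGGCGC, TTTCGCGC and TTTGCCGC.
CDK4 (chr12:58146044-58146343, minus): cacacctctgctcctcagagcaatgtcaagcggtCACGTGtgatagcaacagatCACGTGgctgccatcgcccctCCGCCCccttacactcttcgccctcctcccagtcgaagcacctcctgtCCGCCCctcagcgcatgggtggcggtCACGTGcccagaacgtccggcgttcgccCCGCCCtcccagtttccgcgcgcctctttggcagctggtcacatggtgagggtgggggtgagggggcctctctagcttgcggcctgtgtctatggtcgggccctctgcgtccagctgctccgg
CCNE1 (chr19:30302648-30302947, plus): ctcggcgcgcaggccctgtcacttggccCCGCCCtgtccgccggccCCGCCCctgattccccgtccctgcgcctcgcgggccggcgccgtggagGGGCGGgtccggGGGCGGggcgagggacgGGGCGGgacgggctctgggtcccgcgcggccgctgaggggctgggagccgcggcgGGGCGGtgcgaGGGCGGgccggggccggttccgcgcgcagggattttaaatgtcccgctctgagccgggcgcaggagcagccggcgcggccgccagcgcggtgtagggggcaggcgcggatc
CDKN1A (chr6:36646241-36646540, plus): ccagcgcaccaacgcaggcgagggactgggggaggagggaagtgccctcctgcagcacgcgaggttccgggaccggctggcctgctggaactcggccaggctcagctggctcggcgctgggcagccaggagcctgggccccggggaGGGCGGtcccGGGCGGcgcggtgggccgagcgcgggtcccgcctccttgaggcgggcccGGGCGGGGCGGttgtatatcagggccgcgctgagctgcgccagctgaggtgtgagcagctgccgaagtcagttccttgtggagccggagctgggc
CDKN1B (chr12:12870052-12870351, plus): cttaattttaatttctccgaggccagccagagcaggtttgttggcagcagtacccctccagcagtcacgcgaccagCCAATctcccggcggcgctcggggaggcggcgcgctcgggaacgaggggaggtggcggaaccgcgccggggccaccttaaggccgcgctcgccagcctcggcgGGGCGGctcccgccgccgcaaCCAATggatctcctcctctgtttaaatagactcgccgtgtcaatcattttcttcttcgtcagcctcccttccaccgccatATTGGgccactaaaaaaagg

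The CDK4 window held 3 E-boxes, a motif found in 7.26% of the 35116 promoter windows of the table, and 3 GC boxes. CCNE1 held 7 GC boxes and CDKN1A 4, where 45.0% of all windows held at least 1. CDKN1B held 3 CCAAT boxes, one of them past the start site, a motif found in 34.6% of all windows, and 1 GC box. None of the 4 windows held the E2F letters searched, found in 3.31% of all windows, or TTTGAA, found in 15.2%. Overlapping motifs were counted separately. Some GC boxes follow each other within a few bases, as in CDKN1A. Of the members, 8 had an entry in the table. CDK2 and CCND2 had none. E-boxes also occurred in 2 of the 3 windows of CDKN2C and in 1 of the 2 of CDK6. These are matches of letters only.

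Values were the FPKM that the authors deposited, fragments normalised to transcript length and to the mapped total of the library, which compare genes per length. Before libraries were compared, each was divided by a factor from a trimmed mean of log ratios (scaled FPKM). FPKM give no read counts, so no counting interval is given. Relative depth, read from the steps between the lowest values, was 71.4% to 92.8% of that of Scr shRNA replicate 3, and 59.5% to 63.0% of the low genes used (0.0005 to 0.05 FPKM) lay within 2% of a ratio between whole numbers from 1 to 3. The replicate 1 libraries stood apart from the others: their FPKM summed to 208289 and 217309, and those of the other 4 to between 438262 and 480612. The deviations of a library from its group mean were alike in libraries of the same number (r across genes of 0.855, 0.785 and 0.742 for replicates 1, 2 and 3). ROCK2 itself stood at 3.50, 4.63 and 1.14 scaled FPKM in ROCK2 KD replicates 1, 2 and 3. In the Scr shRNA libraries it stood at 5.50, 6.21 and 5.30, so it was lower in every knockdown library of a pair. Its log2 differences within pairs were -0.53, -0.36 and -1.56, the largest in replicate 3. The fitted log2 fold change of ROCK2 was -0.81 (SE 0.23, unadjusted p = 0.00902, limma), and -0.44 without replicate 3. ROCK2 did not pass an adjusted p of 0.05. B cell markers were abundant (8 genes, summed 443 to 1445 scaled FPKM). Between conditions 0 of the 8 passed an adjusted p of 0.05, as did 0% of all genes, and 1 an unadjusted p of 0.05, as did 5.44%. The latter was CD79A, a subunit of the B cell receptor (log2 fold change 0.22, SE 0.09, unadjusted p = 0.0479, limma). It was higher in all 3 pairs, as were 13.1% of all genes. The 7 T cell markers summed to 0.234 to 1.44 and the 6 myeloid markers to 0.256 to 0.825, and CD2 was at 0 in every library.

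The order of levels ran from CDK4 to CCND2. CDK4 had the highest mean over the 6 libraries, 96.1 scaled FPKM, and lay above CDKN2C (56.8) in 6 of 6 libraries. CDKN2C lay in turn above CDK2 (32.6) in 6 of 6. CDKN2C, an inhibitor of CDK4 and CDK6, thus had the second highest mean per length, although CDKN1A was above it in Scr shRNA replicate 1 (44.2 against 38.7) and level with it in ROCK2 KD replicate 1 (44.1 against 44.2). CDK2 and CDKN1A (31.3) could not be placed in order, with CDK2 higher in 4 of 6 libraries, and CDKN1A was above CCND3 (26.4) in 3 of 6. CCND3 exceeded CDKN1B (17.3) in 5 of 6 libraries, and CDKN1B exceeded CCNE1 (15.0) in 3 of 6. CCNE1 was above CDK6 (10.4), and CDK6 above CDKN2D (4.06), in 6 of 6 libraries each. CCND2, the other D-type cyclin followed here, was nearly silent: its scaled FPKM was 0.129, 0.00423 and 0.00379 in ROCK2 KD replicates 1, 2 and 3, and 0.125 and 0.00351 in Scr shRNA replicates 1 and 2, and it was listed at 0 in replicate 3. CCND2 did not reach the minimum level for testing, 1 FPKM or more in 3 or more libraries, which the other 9 members passed.

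**Figure D1:**
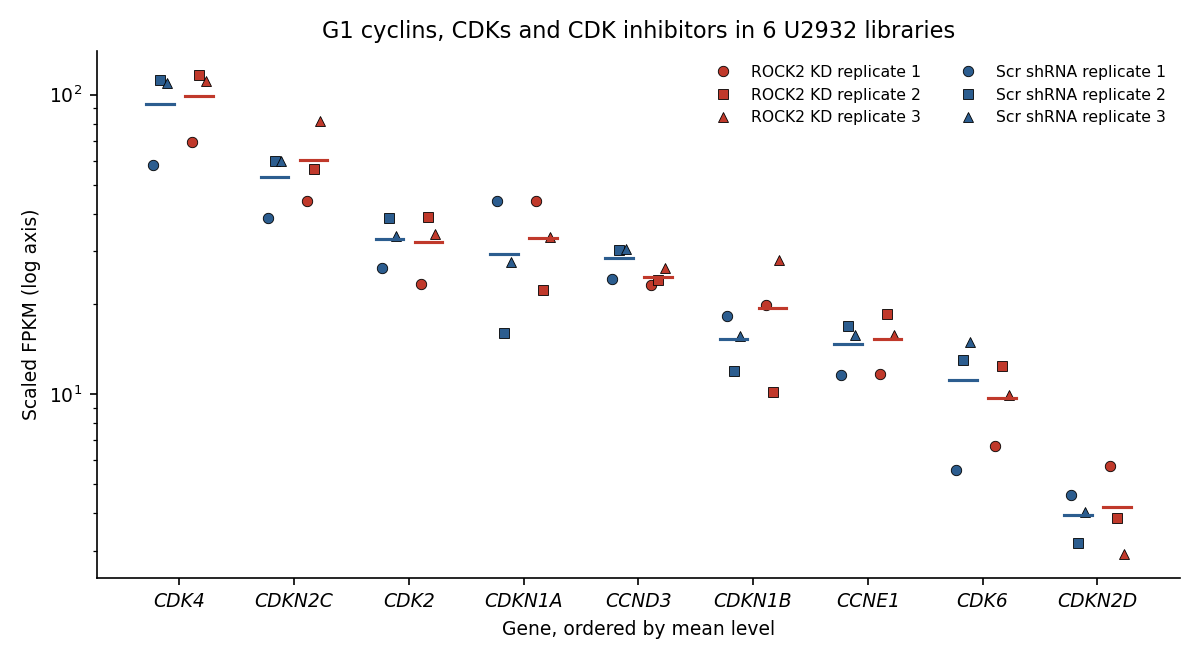
Scaled FPKM (log axis) of 9 members in each library, with ROCK2 KD in red, Scr shRNA in blue, marker shapes for replicate numbers and horizontal bars for group means of 3 libraries. The order runs from CDK4 (mean 96.1) to CDKN2D (4.06), the groups overlap for every gene shown, and circles (replicate 1) lie at the bottom for CDK4 and at the top for CDKN1A. CCND2, at or near 0, is left out.

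No member differed between ROCK2 KD and Scr shRNA past the threshold. Of the 9 tested, 0 had an adjusted p under 0.05 (limma, Benjamini-Hochberg over 10526 genes), where 0% of all genes did, and 0 had an unadjusted p under 0.05, where 573 genes or 5.44% did. Adjusted p-values of the members ran from 0.940 to 0.995. The silenced gene ROCK2 did not pass the adjusted threshold either, so failing it does not show that a member was unchanged. The groups overlapped for all 9 members tested (1.68% of all genes tested had groups that did not overlap). CCND3 was lower in all 3 pairs, as were 12% of all genes, and CDK4 was higher in all 3, as were 13.1%. The median log2 fold change was 0.05 over the members and -0.0021 over all genes tested.

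Among the cyclins, CCND3, the more abundant of the D-type cyclins followed here, stood at 23.1, 24.1 and 26.4 scaled FPKM in ROCK2 KD replicates 1, 2 and 3 and at 24.2, 30.4 and 30.4 in Scr shRNA. The knockdown library was the lower of each pair, but the highest knockdown value lay above the lowest control. The log2 fold change was -0.20 (SE 0.10, 95% interval -0.44 to 0.05, adjusted p = 0.956, limma). CCNE1, the cyclin E that partners CDK2, stood at 11.6, 18.5 and 15.8 in ROCK2 KD and at 11.6, 16.8 and 15.8 in Scr shRNA. The pairs of replicates 1 and 3 were level and that of replicate 2 was higher in the knockdown by a log2 of 0.13. The log2 fold change of CCNE1 was 0.05 (95% interval -0.19 to 0.29), and 0.0034 without replicate 2.

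CDK4, which pairs with the D-type cyclins, stood at 69.3, 116 and 111 scaled FPKM in ROCK2 KD and at 58.3, 112 and 110 in Scr shRNA. Its log2 difference within pairs was 0.25, 0.05 and 0.02, so that most of the fitted value of 0.11 (SE 0.10, 95% interval -0.12 to 0.34) came from replicate 1. CDK6, the alternative partner of the D-type cyclins, stood at 6.69, 12.4 and 9.93 in ROCK2 KD and at 5.56, 12.9 and 14.9 in Scr shRNA. The pairs went in opposite directions, with log2 differences of 0.23, -0.06 and -0.54. The fitted log2 fold change of CDK6 was -0.12 (SE 0.16, 95% interval -0.50 to 0.25), and it turned to 0.09 without replicate 3. CDK2, which acts with cyclin E, stood at 23.3, 39.1 and 34.2 in ROCK2 KD and at 26.4, 38.7 and 33.8 in Scr shRNA. Its fitted difference was -0.05 (SE 0.10, 95% interval -0.28 to 0.19), and only the replicate 1 pair was lower in the knockdown, so that the value was 0.017 without that pair.

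The CIP/KIP inhibitors had the highest estimates, neither past the threshold. CDKN1A, which encodes p21, the inhibitor induced by p53, stood at 44.1, 22.3 and 33.3 scaled FPKM in ROCK2 KD and at 44.2, 15.9 and 27.6 in Scr shRNA. The replicate 1 pair was level, and the knockdown was higher in the other two pairs. Its log2 fold change was 0.24 (SE 0.12, 95% interval -0.04 to 0.52, unadjusted p = 0.0825, adjusted p = 0.940, limma), a 1.18-fold difference on the log2(scaled FPKM + 1) scale. Without replicate 1 it was 0.36 (unadjusted p = 0.0303, where 8.32% of all genes passed that threshold), and without replicate 2 it was 0.13 (unadjusted p = 0.381). CDKN1B, which encodes p27, stood at 19.9, 10.2 and 28.0 in ROCK2 KD and at 18.2, 11.9 and 15.7 in Scr shRNA. ROCK2 KD replicate 3 was the highest of the 6 libraries, and the estimate rested on this pair: the log2 differences were 0.12, -0.21 and 0.80. The fitted value for CDKN1B was 0.24 (SE 0.19, 95% interval -0.21 to 0.68, adjusted p = 0.967), and without replicate 3 it was -0.045. Without replicate 2 it was 0.46 (unadjusted p = 0.0350, where 5.32% of all genes passed that threshold).

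Of the INK4 inhibitors, CDKN2C stood at 44.2, 56.2 and 81.4 scaled FPKM in ROCK2 KD and at 38.7, 60.0 and 60.0 in Scr shRNA. ROCK2 KD replicate 3 was again the highest library, and the replicate 2 pair went the other way. The log2 fold change of CDKN2C was 0.18 (SE 0.12, 95% interval -0.11 to 0.47, adjusted p = 0.956), and it was 0.31 without replicate 2 and 0.049 without replicate 3. CDKN2D, which encodes p19, stood at 5.76, 3.84 and 2.92 in ROCK2 KD and at 4.61, 3.17 and 4.05 in Scr shRNA. Its pairs differed by 0.27, 0.21 and -0.36, and the fitted value of 0.04 (95% interval -0.32 to 0.40) turned negative when either replicate 1 or replicate 2 was left out, at -0.07 and -0.05. Intervals of this width leave room for changes of either sign in every tested member, and a p above the threshold does not show that levels were equal.

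**Figure D2:**
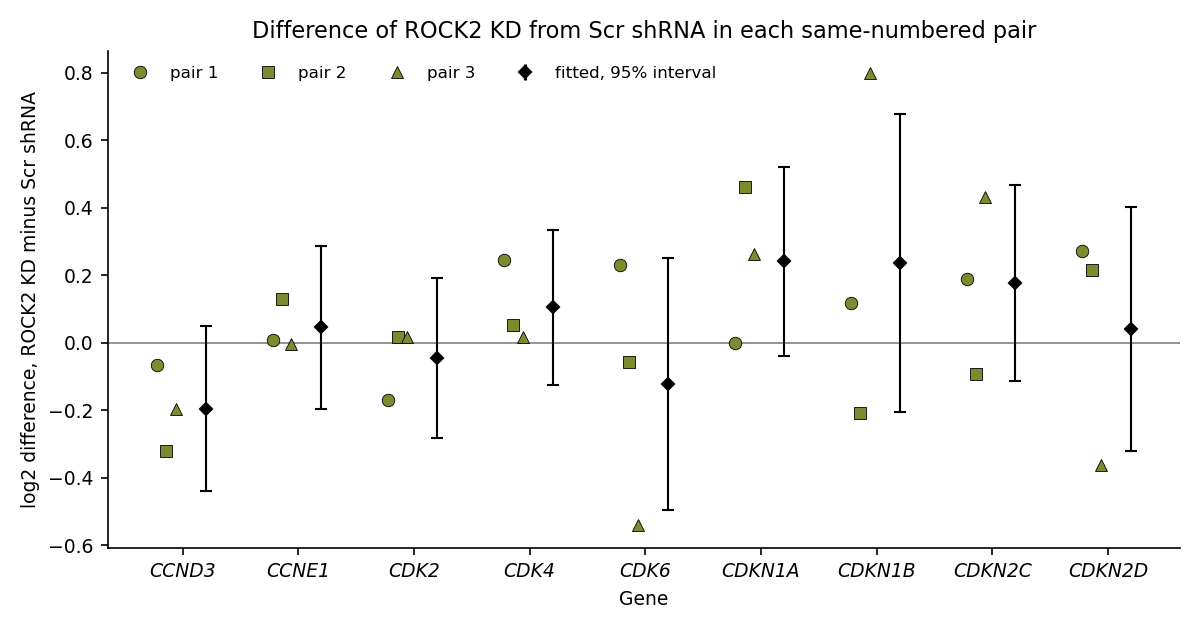
Log2 difference in scaled FPKM + 1 between ROCK2 KD and Scr shRNA for each same-numbered pair (green markers, 1 shape per pair) and the fitted value with its 95% interval from limma (black). Every interval crosses 0. The replicate 3 pair lies lowest for CDK6 (-0.54) and CDKN2D (-0.36), and highest for CDKN1B (0.80) and CDKN2C (0.43).

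Most of the members differed between replicate numbers, as did most genes. In the same fit, 7 of the 9 tested differed between replicates 1, 2 and 3 (limma F test, adjusted p under 0.05), where 57.5% of all genes did. They were CCNE1, CDK2, CDK4, CDK6, CDKN1A, CDKN1B and CDKN2C. CCND3 (adjusted p = 0.240) and CDKN2D (adjusted p = 0.101) did not pass. The lowest adjusted p-values belonged to CDKN1A (0.00188) and CDK4 (0.00209). In both groups the replicate 1 library stood apart. The replicate 1 libraries of ROCK2 KD and Scr shRNA lay below all other 4 for 5 members, CCNE1, CDK2, CDK4, CDK6 and CDKN2C, as they did for 47.2% of all genes tested. They lay above all other 4 for 2 members, CDKN1A and CDKN2D, as for 16.5% of all genes. With no scaling the replicate 1 libraries lay below the other 4 for CCND3 as well, and no longer above them for CDKN1A and CDKN2D.

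The median log2 difference of replicate 1 over all genes tested depended on the scaling: it was -0.26 with the trimmed mean, 0.028 with scaling by the median log ratio and -0.70 with none. The members are therefore given relative to that median gene, with the trimmed mean unless stated. CDK6 was 0.66 below it on the log2 scale (-0.66), CDK4 stood at -0.55, CDKN2C at -0.35, CDK2 at -0.27 and CCNE1 at -0.23. CCND3 was at 0.04, the same as the median gene within 0.1, and its sign depended on the scaling (0.07 with median scaling and -0.014 with none). On the other side lay CDKN1B at 0.56, CDKN2D at 0.72 and CDKN1A at 1.12. For the other 8 members this order around the median gene had the same sign with scaling by the median log ratio and with no scaling. Relative to the median gene, the kinases, cyclin E and p18 thus stood low in the mean of the replicate 1 libraries, and p21, p27 and p19 stood high. For p27 this held for the mean alone. Its replicate 1 libraries did not lie outside the other 4 under any scaling. They stood at 19.9 and 18.2 scaled FPKM, and ROCK2 KD replicate 3 at 28.0.

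Each group showed it separately, here before the median gene is taken off. CDKN1A was higher in replicate 1 than in the mean of replicates 2 and 3 by 0.67 on the log2 scale in ROCK2 KD and by 1.04 in Scr shRNA. CDK4 differed by -0.71 and -0.92, and CDK6 by -0.66 and -1.18. Leaving out both replicate 1 libraries left 1 member past the threshold between replicates 2 and 3, where 6.76% of all genes passed. It was CDKN1A, whose level was 22.3 and 15.9 in the replicate 2 libraries and 33.3 and 27.6 in those of replicate 3. Scaling by the median log ratio called 5 members (CDK4, CDK6, CDKN1A, CDKN1B and CDKN2D), and 48.7% of all genes. FPKM sums, B cell markers and mitotic genes moved with the replicate number in the same libraries. Summed B cell markers were 443 and 627 scaled FPKM in the replicate 1 libraries and 1160 to 1445 in the others, and the 15 genes of G2 and M phase summed to 291 and 329 against 811 to 921. Their part in the members' difference was not tested. What a replicate number stands for, such as a culture, an infection or a day, is not given in the sources used here.

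**Figure D3:**
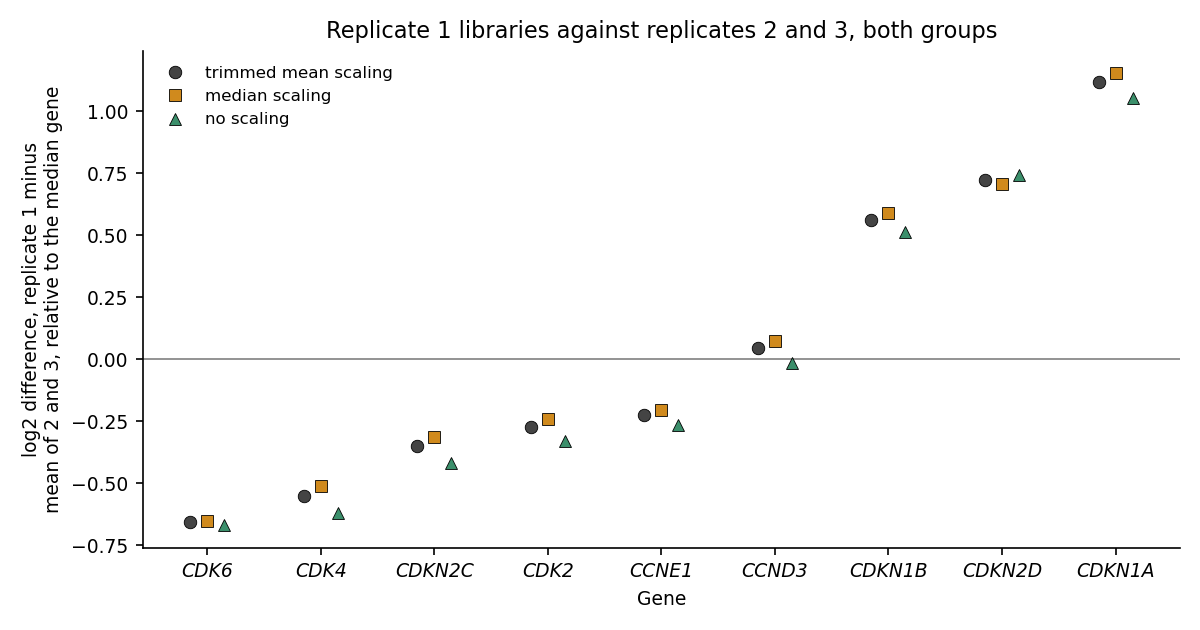
Log2 difference of the replicate 1 libraries from the mean of replicates 2 and 3, both groups averaged, relative to the median of all genes tested, for 9 members under 3 scalings (marker shapes). CDK6 (-0.66), CDK4 (-0.55), CDKN2C (-0.35), CDK2 (-0.27) and CCNE1 (-0.23) lie below 0, CDKN1B (0.56), CDKN2D (0.72) and CDKN1A (1.12) lie above it, and CCND3 changes side with no scaling.

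Ratios between members of 1 library do not depend on how that library is scaled. CDK4 exceeded CDK6 by a similar factor in every library: the ratio of FPKM was 10.4, 9.38 and 11.2 in ROCK2 KD replicates 1, 2 and 3 and 10.5, 8.67 and 7.35 in Scr shRNA. The mean log2 difference of this ratio between conditions was 0.23 (SD of 3 pairs 0.33, exact two-sided sign-flip permutation p = 0.5). CDKN1A exceeded CDKN1B in all libraries, at 2.22, 2.19 and 1.19 in ROCK2 KD and 2.43, 1.34 and 1.76 in Scr shRNA, with a mean log2 difference of 0.0072 (SD 0.65, exact permutation p = 1). CDKN2C exceeded CDKN2D at 7.68, 14.6 and 27.8 in ROCK2 KD and 8.40, 18.9 and 14.8 in Scr shRNA, with a mean log2 difference of 0.14 (SD 0.68, exact permutation p = 1). The p-values adjusted over these 3 ratios were 1, and 3 pairs cannot give a p below 0.25.

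Ratios of inhibitor to kinase, added after the values had been seen and given without a test, differed with the replicate number. CDKN1A stood above CDK2 in the replicate 1 libraries, at a ratio of 1.89 in ROCK2 KD and 1.68 in Scr shRNA, and below it in the other 4, at 0.571 and 0.975 in ROCK2 KD and 0.412 and 0.817 in Scr shRNA. Within pairs this ratio was higher in the knockdown in 3 of 3, by a log2 of 0.18, 0.47 and 0.25. CDKN1A to CDK4 was 0.637, 0.192 and 0.301 in ROCK2 KD and 0.759, 0.142 and 0.252 in Scr shRNA, and its pairs differed in direction. CDKN1B to CDK2 ran from 0.260 to 0.852, also with pairs in both directions.

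**Figure D4:**
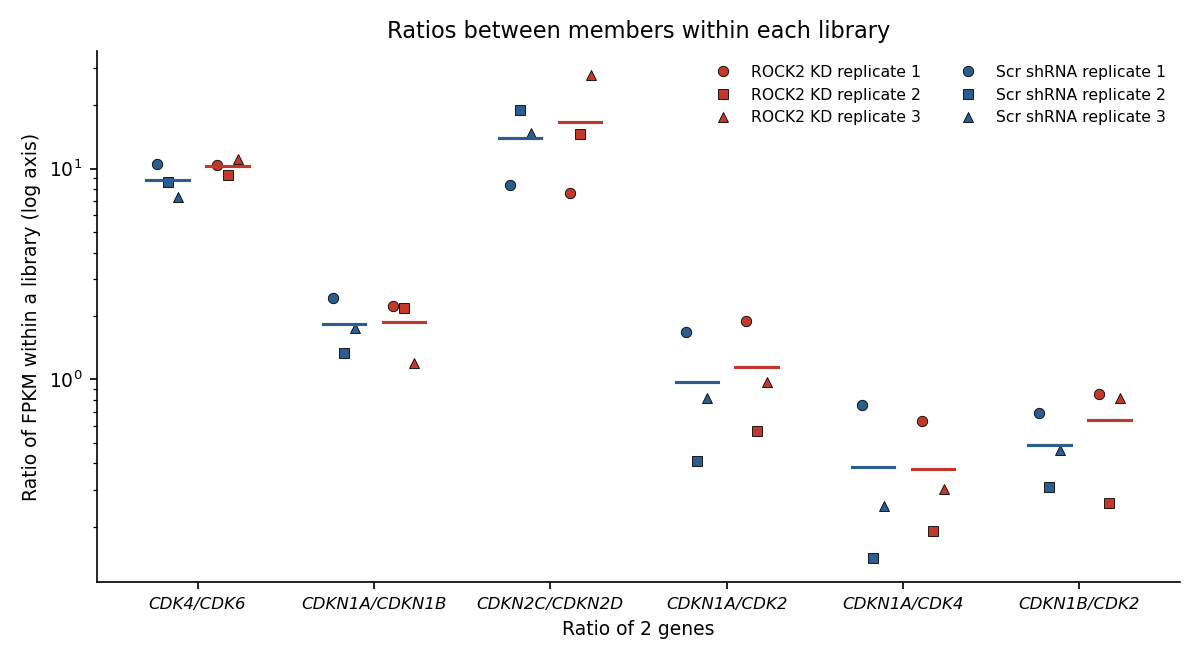
Ratio of the FPKM of 2 genes within each library (log axis) for 6 pairs of genes, with ROCK2 KD in red, Scr shRNA in blue, marker shapes for replicate numbers and bars for the mean of 3 ratios. CDK4/CDK6 stays between 7.35 and 11.2, while CDKN1A/CDK2 is above 1 in the replicate 1 libraries alone.

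Genes that act around the members were read from lists. Beside each list stand the shares of all genes tested, 0% at an adjusted p of 0.05 and 5.44% at an unadjusted p of 0.05. Of 9 other G1 cyclins, CDKs and inhibitors, 7 were tested, and 0 passed an adjusted p of 0.05 and 1 an unadjusted p of 0.05. The latter was CDKN2B, an INK4 inhibitor (unadjusted p = 0.0237), with 2.74, 1.51 and 4.57 scaled FPKM in ROCK2 KD and 1.66, 1.30 and 2.97 in Scr shRNA (log2 fold change 0.37, SE 0.13, adjusted p = 0.879, limma). Its unadjusted p was above 0.05 without replicate 1 (0.0988), without replicate 3 (0.104), with no filter on low values (0.0535) and with no replicate block (0.312). The others nearest to the threshold were CDKN3 (0.26), a phosphatase of CDKs, CDK1 (0.13), the mitotic kinase, and CCNA2 (0.14), the cyclin of S and G2 phase, with unadjusted p-values from 0.148 to 0.298 (limma). In each the replicate 1 pair differed most, by 0.74, 0.36 and 0.43. The replicate 3 pair went the other way, at -0.018, -0.060 and -0.13. Among 8 enzymes that activate or inhibit CDKs, 0 passed after adjustment and 1 before it. PKMYT1, an inhibitory kinase of CDK1, stood at 14.6, 10.9 and 15.5 in ROCK2 KD and 13.7, 19.0 and 27.7 in Scr shRNA (log2 fold change -0.49, SE 0.18, unadjusted p = 0.0320, adjusted p = 0.885). Its replicate 1 pair went the other way (0.087), and the log2 fold change was -0.78 without that pair. Its unadjusted p was above 0.05 without replicate 2 (0.124), without replicate 3 (0.169), with no filter on low values (0.0895) and with no replicate block (0.139). CCNH, a subunit of the CDK-activating kinase, was at 0.25, and CDC25A, a phosphatase that activates CDK2, at -0.16. Of the 17 ubiquitin ligase components, 0 passed before or after adjustment, their log2 fold changes running from -0.17 to 0.15.

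Downstream of the G1 kinases, 0 of 13 RB and E2F genes and 0 of 18 E2F target genes of S phase entry had an adjusted p under 0.05 (0 and 1 at an unadjusted p under 0.05). Of all genes tested, 0% and 5.44% passed these thresholds. E2F1, an activating E2F, stood at 13.6, 17.7 and 12.2 scaled FPKM in ROCK2 KD and 14.7, 20.9 and 17.8 in Scr shRNA, lower in all 3 pairs (log2 fold change -0.28, SE 0.12, unadjusted p = 0.0505, adjusted p = 0.902, limma). E2F2 was at -0.22 (unadjusted p = 0.108). CDT1, which licenses replication origins, had the lowest p of these lists: 14.8, 11.4 and 23.6 in ROCK2 KD against 20.4, 18.2 and 30.5 in Scr shRNA, a log2 fold change of -0.48 (SE 0.11, unadjusted p = 0.00296, adjusted p = 0.791). With no replicate block its unadjusted p was 0.188. Of the S phase genes 14 were lower and 4 higher, where 5327 of all 10526 genes were lower, with a median of -0.10 beside -0.0021 for all genes. The pairs disagreed: the list's median difference was 0.09, -0.08 and -0.21 in replicates 1, 2 and 3, and 4 of the 18 genes were lower in all 3 pairs, as were 12% of all genes. MCM2, a subunit of the replicative helicase, was at -0.20 and MCM3 at -0.16. The G2 and M phase genes numbered 6 higher and 9 lower, median -0.02, with 0 past an unadjusted p of 0.05. Between replicate numbers, 16 of the 18 S phase genes and 15 of the 15 G2 and M phase genes passed the adjusted threshold, as did 57.5% of all genes. Their median differences of replicate 1 from the mean of replicates 2 and 3 were -0.81 and -1.49, beside -0.26 for all genes.

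Around the inhibitor genes, 0 of 19 tested p53 target genes passed an adjusted p of 0.05, and 3 had an unadjusted p under 0.05, as did 573 of all 10526 genes, 331 of them higher. The 3 were higher in ROCK2 KD: ZMAT3 (0.37), SESN1 (0.33) and PLK3 (0.35), with adjusted p-values from 0.866 to 0.883 (limma). Of the 19, 6 were higher and 13 lower, and the median was -0.04. GADD45A, a stress-induced binding partner of CDK1, was at -0.33 (unadjusted p = 0.194). Of 9 tested transcription factors of inhibitor genes, 0 passed before or after adjustment. FOXO1, which activates the p27 gene, was at 0.17, FOXO3 at 0.20, FOXO4 at -0.17 and ZBTB17 at -0.12. None of these values differed beyond the replicate spread after adjustment.

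Over the 6 libraries, the genes whose log2 values followed CDKN1A most closely were UEVLD (Pearson r = 0.988), MOB1B (0.985) and ZBTB41 (0.981). The points share libraries and the replicate difference, and the values are a description. UEVLD stood at 3.04, 1.89 and 2.59 scaled FPKM in ROCK2 KD and at 3.51, 1.34 and 2.34 in Scr shRNA, with the same low point in replicate 2 as CDKN1A.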

How the data were processed

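RNA-seq was performed on 6 U2932 libraries, 3 ROCK2 KD and 3 Scr shRNA, grouped by the labels' titles. The authors prepared Nextera libraries, used STAR for alignment of paired reads to hg19 and Cufflinks for FPKM, and these deposited FPKM were the only values used. Their ComBat and limma steps on HTSeq counts were not repeated, as the files hold no counts.

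FPKM were divided by a trimmed-mean factor (trims 0.3 and 0.05). A gene was tested if 3 or more libraries had 1 FPKM or more, which left 10526 genes. The tested value was log2(scaled FPKM + 1), which understates changes of low genes. limma 3.58.1 (R 4.3.3) was fitted with replicate number as a block, condition, an empirical Bayes trend and Benjamini-Hochberg adjustment, and the replicate number was tested by the F test of that fit. The pairing rests on the shared numbers of the labels, the replicate-based batch step named by the authors, and the correlations of same-numbered libraries (0.742 to 0.855, against -0.649 to 0.0557 for different numbers). Deviations from a group mean cancel out within the group, so positive values for the same number pull those for different numbers down by construction. Scripts were tested on simulated data. Within-library ratios were compared by exact sign-flip permutation tests over 3 pairs (scipy 1.17.1). Alternatives covered the pseudocount, filter, scaling, trend, block, ComBat (written out in R without the condition) and left-out replicates.

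The members and gene lists were chosen with earlier results of these data known. Besides the members, genes named were ROCK2, up to 4 per list with the lowest unadjusted p, and the 3 that followed most closely the member of largest fold change. Outside this rule and after their values were seen, CCND1, CDKN2A and CCNE2 were named, and TSPAN31 was added for its overlap with CDK4, and CD2 among the markers. Gene positions come from GENCODE 44 lifted to GRCh37 and promoters from RefSeq (GRCh38.p14), matched to GRCh37.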

Additional observations from a re-analysis of the deposited data

How the results depend on the processing

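FPKM give no read counts, so the precision of low genes such as CCND2 could not be set from depth, and 3 pairs limit every estimate. No member reached an adjusted p under 0.05 between conditions under any alternative, and of 99 refits of the members' fold changes 94 kept their direction. The 5 that turned were CDK2 without replicate 1 (0.017, range over left-out replicates -0.077 to 0.017), CDK6 without replicate 3 (0.087, range -0.30 to 0.087), CDKN1B without replicate 3 (-0.045, range -0.045 to 0.46), and CDKN2D without replicate 1 or 2 (-0.074 and -0.046, range -0.074 to 0.24). The other members ranged from -0.26 to -0.13 (CCND3), 0.0034 to 0.070 (CCNE1), 0.035 to 0.15 (CDK4), 0.13 to 0.36 (CDKN1A) and 0.049 to 0.31 (CDKN2C). With no replicate block, the lowest unadjusted p among members was 0.394 and 26 genes in all had an unadjusted p under 0.05, against 573 with the block. ComBat followed by limma with no replicate block gave 296 genes past the adjusted threshold, among them CDT1 (log2 fold change -0.36, adjusted p = 0.0281), and 2 members with an unadjusted p under 0.05, CCND3 and CDKN1A, lowest adjusted p 0.106, where 20.2% of all genes had an unadjusted p under 0.05. The cause was not tested. Leaving out a replicate gave 0 to 1 members with an unadjusted p under 0.05 (CDKN1A without replicate 1, where 8.32% of all genes passed, and CDKN1B without replicate 2, where 5.32% did) and 0 to 4 genes in all past the adjusted threshold. Between replicate numbers, 4 of the 9 members passed with no filter on low values (18785 genes tested, 32.8% called), and CCND2 passed as well. Leave-outs of a library or replicate number, chosen after seeing the data, gave 1 to 8 members, with 1 without replicate 1 (6.76% of all genes called), 4 without ROCK2 KD replicate 1 (42.9%) and 3 without Scr shRNA replicate 1 (41.4%). CDK4 passed under every alternative but the one without replicate 1, and CDKN1A under all. The log2 ratio differences had ranges of 0.048 to 0.36 for CDK4/CDK6, -0.35 to 0.29 for CDKN1A/CDKN1B (reversed without replicate 2) and -0.25 to 0.39 for CDKN2C/CDKN2D (reversed without replicate 3), and the exact p without the replicate block was 0.3, 1 and 1. The planned ratio of CCND2 to CCND3 has no value, as CCND2 is listed at 0 in 1 library.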

Other observations

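The following G1 genes were named after their values were seen. CCND1, a D-type cyclin that mature B cells seldom express, stood at 2.27 and 2.74 scaled FPKM in the replicate 1 libraries of ROCK2 KD and Scr shRNA and at 0.0977 to 0.187 in the other 4, and did not pass the filter on low values. CDKN2A, the gene of the INK4 inhibitor p16 and of ARF, stood at 86.3 and 72.2 in the replicate 3 libraries and at 28.4 to 29.1 in the other 4 (limma F test between replicate numbers, adjusted p = 0.000429), with a log2 fold change between conditions of 0.08 (adjusted p = 0.979). Its pattern was unlike that of the INK4 gene CDKN2C, whose lowest libraries were those of replicate 1. CCNE2, the other cyclin E, stood at 18.5 to 24.5 in all 6 libraries, and its difference between replicate numbers did not pass (adjusted p = 0.395).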
